A study of Mus musculus with 17 samples.

Results

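A pair of kinase inhibitors, UO126 against MEK and SU6656 against Src family kinases, was compared in quiescent NIH 3T3 cells. NIH 3T3 is a fibroblast line from mouse embryos. The contrast uses 4 of the 17 arrays of the series, chosen by their labels and not by any measured value: 1 array of SU6656 at 2 µM, 1 of UO126 at 10 µM, and 1 of each with PDGF at 25 ng/ml for 1 hour. These 4 belong to an experiment of 8 arrays that asked which immediate early genes PDGF induces through Src family kinases, MEK or PI3K. Its other 4 arrays were vehicle, PDGF alone, LY294002 (a PI3K inhibitor, 7.5 µM) and PDGF with LY294002. They enter no difference between UO126 and SU6656 and serve the estimate of the residual spread. The inhibitors were used at different doses, so the values compare these treatments and not equal amounts of inhibitor. How long the cells had an inhibitor before PDGF is not given in the sources used here.

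MEK phosphorylates and activates ERK, which drives immediate early transcription and its own feedback inhibitors, the dual-specificity phosphatases and Sprouty proteins. Src family kinases are recruited to the activated PDGF receptor and act beside the MEK pathway. Among the gene lists examined below, the one with the most genes past the threshold belongs to another programme. SREBP transcription factors are released from the endoplasmic reticulum when membrane cholesterol is low, and they bind the promoters of the enzymes that make cholesterol from acetyl-CoA, together with NF-Y at CCAAT boxes.

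With UO126, enzymes of cholesterol synthesis were higher than with SU6656 in both PDGF states. Of 22 measured SREBP sterol genes, 9 passed the threshold (limma, Benjamini-Hochberg adjusted p under 0.05 over all probe sets), all higher with UO126. This list, like the others below, was chosen with earlier results of these data known. Its counts describe these data and are no test of the list. Over all 9218 genes, at each gene's brightest probe set, 18 (0.195%) were higher and 4 (0.0434%) lower with UO126. Hmgcs1 was 2.86-fold higher with UO126 (log2 1.52, SE 0.153, adjusted p = 0.0055, 2 arrays against 2), and Fdft1 2.83-fold (log2 1.498, SE 0.127, adjusted p = 0.0032). The other passing genes included Adamts1, a secreted metalloprotease (2.40-fold higher), and, on the lower side, Arf2, a small GTPase of vesicle traffic.

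The promoters of 4 of the 9 sterol genes are shown for their sequence. Whether a regulator binds these windows, or has a part in the differences, was not tested. Capitals mark the classic sterol regulatory element (TCACNCCAC) and the CCAAT box (CCAAT), on either strand, so that a box on the other strand reads GTGGNGTGA or ATTGG. The windows run from 250 bases before to 50 bases after the RefSeq start, 5′ to 3′ along the gene, in build GRCm38.p6: Hmgcs1 at chr13:119690101-119690400 (plus strand), Msmo1 at chr8:64733529-64733828 (minus strand), Cyp51 at chr5:4104648-4104947 (minus strand) and Idi1 at chr13:8885356-8885655 (plus strand).
Hmgcs1: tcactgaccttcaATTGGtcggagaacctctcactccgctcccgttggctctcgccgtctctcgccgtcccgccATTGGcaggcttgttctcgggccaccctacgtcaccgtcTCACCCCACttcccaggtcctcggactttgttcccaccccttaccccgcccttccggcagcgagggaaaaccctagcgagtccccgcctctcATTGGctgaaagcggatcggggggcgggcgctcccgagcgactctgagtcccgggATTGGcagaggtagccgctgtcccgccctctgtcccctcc
Msmo1: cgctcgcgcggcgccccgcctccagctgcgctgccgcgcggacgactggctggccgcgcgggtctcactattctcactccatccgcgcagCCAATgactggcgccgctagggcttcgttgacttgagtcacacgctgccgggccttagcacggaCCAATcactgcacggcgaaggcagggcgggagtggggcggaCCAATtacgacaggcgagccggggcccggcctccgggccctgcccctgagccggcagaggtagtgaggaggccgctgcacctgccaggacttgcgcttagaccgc
Cyp51: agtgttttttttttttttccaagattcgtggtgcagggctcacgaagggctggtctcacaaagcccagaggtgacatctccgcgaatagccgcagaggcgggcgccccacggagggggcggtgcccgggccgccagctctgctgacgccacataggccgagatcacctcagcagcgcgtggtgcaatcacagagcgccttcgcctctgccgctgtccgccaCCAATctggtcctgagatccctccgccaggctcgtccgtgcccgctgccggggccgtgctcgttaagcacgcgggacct
Idi1: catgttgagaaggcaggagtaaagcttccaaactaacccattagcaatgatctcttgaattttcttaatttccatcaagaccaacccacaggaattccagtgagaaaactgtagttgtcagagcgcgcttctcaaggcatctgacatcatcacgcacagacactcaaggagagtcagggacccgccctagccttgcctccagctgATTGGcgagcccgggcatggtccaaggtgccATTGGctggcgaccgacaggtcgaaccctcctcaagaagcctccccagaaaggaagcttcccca
Of the 9 genes, 6 had an entry in the RefSeq table, and Fdft1, Sqle and Stard4 had none. The sterol regulatory element was found in 1 of the 6, Hmgcs1, against 1.24% of 32851 promoters of the same length. Of the 16 measured list members with an entry, 1 held this element. CCAAT was found in 6 of 6, against 37.4% of all promoters, and in 15 of the 16 measured list members with an entry. The GC box, GGGCGG on either strand, was found in 6 of 6, against 35.7%, and in 14 of the 16. Its letters can overlap the end of a CCAAT match. A match describes letters in the window and is no measure of binding.

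Of the early steps of the pathway, 3 enzymes passed. Hmgcs1, which condenses acetyl-CoA units to HMG-CoA, had a deposited signal of 3175.2 with SU6656, 12854.7 with UO126, 8715.2 with PDGF and SU6656, and 19116.1 with PDGF and UO126. Both UO126 arrays lay above both SU6656 arrays. The vehicle array had 11424.9 and the PDGF array 20098.2, so in each PDGF state UO126 lay near its reference array and SU6656 well below it. The log2 difference was 1.94 without PDGF and 1.09 with it, and of 4 Hmgcs1 probe sets 3 passed (1.52, 1.65 and 1.53), with 1.39 for the fourth (adjusted p = 0.0718). Mvd, the decarboxylase at the end of the mevalonate steps, had 898.8 with SU6656, 1734.0 with UO126, 931.1 with PDGF and SU6656 and 2109.1 with PDGF and UO126. Its log2 difference was 1.04 (SE 0.109, adjusted p = 0.0058) at a probe set that can match several transcripts, and 0.92 at its other called probe set. Idi1, the isomerase of isopentenyl diphosphate, had 1563.4 and 3090.8 without PDGF and 2134.1 and 4287.4 with it, for SU6656 and UO126 in that order. Its difference was the same in both states, 0.97 and 0.98.

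Squalene synthesis and its oxidation followed. Fdft1, squalene synthase, had 551.4 with SU6656 and 1872.3 with UO126, and under PDGF 857.0 and 2116.0, with no overlap between the inhibitors. A second Fdft1 probe set gave 1.31 and also passed, while 2 dim ones (mean signal 183.4 and 158.6) gave −0.54 and −0.56 and did not. Sqle, squalene epoxidase, had 2349.8 and 5049.0 without PDGF and 3054.6 and 5750.5 with it, a log2 difference of 0.98 (SE 0.101, adjusted p = 0.0056). Again both UO126 arrays were the higher.

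The later steps from lanosterol showed the same order of arrays. Cyp51, lanosterol demethylase, had 2946.5 and 6124.4 without PDGF and 3949.8 and 7524.9 with it (log2 0.97, SE 0.0875, adjusted p = 0.0036). Msmo1, the sterol methyl oxidase, had 1377.2 and 3805.1, and under PDGF 2578.5 and 5647.2 (log2 1.28, SE 0.104, adjusted p = 0.0032). In each of these the SU6656 values lay below those of UO126 without overlap. Sc5d, a sterol desaturase, had 433.8 and 845.5 without PDGF and 679.0 and 1210.4 with it (log2 0.86, SE 0.121, adjusted p = 0.0268). A dimmer Sc5d probe set gave 0.67, with 0.27 under PDGF, and did not pass (limma adjusted p = 0.456). Stard4, a carrier of cholesterol between membranes and no enzyme of the pathway, had 381.5 and 784.0, then 745.8 and 1570.7 (log2 1.00, SE 0.13, adjusted p = 0.0199). Another Stard4 probe set gave 0.87 and did not pass (adjusted p = 0.104).

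The other 13 measured members of the list did not pass. Lss, lanosterol synthase, had 0.67 (SE 0.127, adjusted p = 0.0957) and Dhcr7, which makes cholesterol from its last precursor, 0.72 (SE 0.131, adjusted p = 0.0893). The fatty acid enzymes had smaller differences: 0.30 for Fasn, 0.25 for Scd2, 0.44 for Acaca and 0.06 for Scd1. Of the regulators, Srebf2 had 0.27 and Insig2 0.15. Srebf1 was the only member whose difference changed sign with PDGF, 0.61 without it and −0.60 with it. All 22 had a positive mean difference, 21 were positive in both PDGF states (26.2% of all genes were), and in 19 both UO126 arrays lay above both SU6656 arrays in deposited signal (14.5% of all genes). The list's median was 0.56, with 0.65 without and 0.60 with PDGF, against −0.0032 over all genes. The list holds 26 genes, and 4 of them were not analysed here. It was chosen with earlier results of these data known, so the shares are given as description only.

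**Figure D1:**
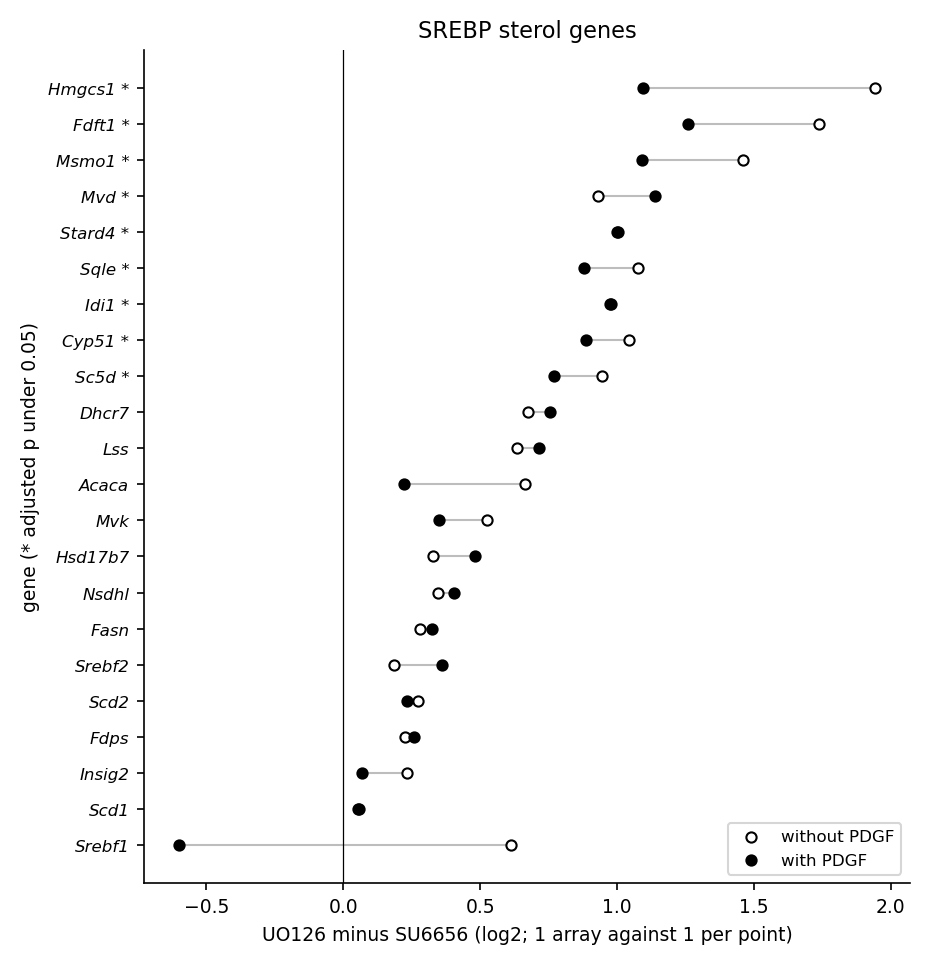
Difference in log2 signal between UO126 and SU6656 (x axis) for the 22 measured SREBP sterol genes (y axis), without PDGF (open) and with PDGF (filled), each point 1 array against 1. Every pair of points but that of Srebf1 lies to the right of 0, with Hmgcs1 farthest out at 1.94 and 1.09.

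Against the reference array of each state, the sterol genes as a list separated the inhibitors mostly on the SU6656 side. SU6656 lay below vehicle in 21 of 22 members (median log2 −0.55) and below PDGF alone in 21 of 22 (median −0.58). For UO126 the medians were 0.06 and −0.11, with 7 members below vehicle and 18 below PDGF alone. Single members could differ from this. For Mvd, UO126 lay 0.37 above vehicle and 0.38 above PDGF alone, and SU6656 lay below both (−0.56 and −0.76). These differences share the vehicle or the PDGF array between the inhibitors and are given as values only. No share over all genes was taken for the counts of members below a reference array, so those counts are description only. In a bulk array, fewer cells that express a gene and less RNA per cell cannot be told apart. Without the array of PDGF with SU6656 the count of 9 sterol genes was 4, without the SU6656 array 5, and without any other 1 array 6 to 8. It was 0 without a variance trend and 0 without a term for PDGF, with the same median of 0.56.

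Aacs, which activates acetoacetate for lipid synthesis and stands on no list here, had the same profile. Its signal was 583.6 with SU6656 and 1161.6 with UO126, and under PDGF 721.4 and 1898.3, against 1299.2 with vehicle and 1925.3 with PDGF alone. The log2 difference was 1.15 (SE 0.123, adjusted p = 0.0058), with UO126 close to the reference array in both states (log2 −0.12 and −0.03). SU6656 lay further below it (−1.11 and −1.34). A second Aacs probe set gave 0.78 and did not pass (adjusted p = 0.084), and another, dim, gave −0.57, with −1.69 under PDGF.

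In a second set of genes, grouped here by their values, UO126 lay above the reference array and SU6656 below it in each state. The inhibitors share each reference array, and these positions were not tested. Mvd, Sox4 and Eif4a2, described elsewhere in this text, had the same order. Adamts1 had 871.7 with SU6656 and 2081.4 with UO126, and 913.5 and 2301.7 under PDGF, against 1416.0 with vehicle and 1493.9 with PDGF alone. Its log2 difference was 1.25 without and 1.28 with PDGF (mean 1.26, SE 0.125, adjusted p = 0.0051). For each inhibitor the signals without and with PDGF were close, and the reference arrays lay between the inhibitors in both states. Ptgs2, the inducible cyclooxygenase and a PDGF-induced gene, had 183.3 and 360.8 without PDGF and 2031.2 and 5147.7 with it, against 246.6 with vehicle and 3501.4 with PDGF alone. The difference was 1.09 (SE 0.14, adjusted p = 0.0195), and its other probe set gave 1.08 (adjusted p = 0.0893). Cited2, a transcriptional coregulator, had 2109.9 and 3561.9 without PDGF and 4693.1 and 8924.4 with it (log2 0.83, SE 0.112, adjusted p = 0.0248), with 2814.1 and 7266.6 on the reference arrays. Another Cited2 probe set gave 0.54 and did not pass (limma adjusted p = 0.126).

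Ptgs2 was the only one of 14 measured inflammatory NF-κB targets to pass, and Cited2 the only one of 20 FOXO targets. Each list counts 1 member higher and 0 lower, against 0.195% and 0.0434% of all genes, and 1 call does not set a list apart. The NF-κB list had a median of 0.33 and the FOXO list 0.15. Within the former, the chemokine gene Ccl7 had a larger difference than Ptgs2, 1.52, but a larger error (SE 0.435, adjusted p = 0.307).

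**Figure D2:**
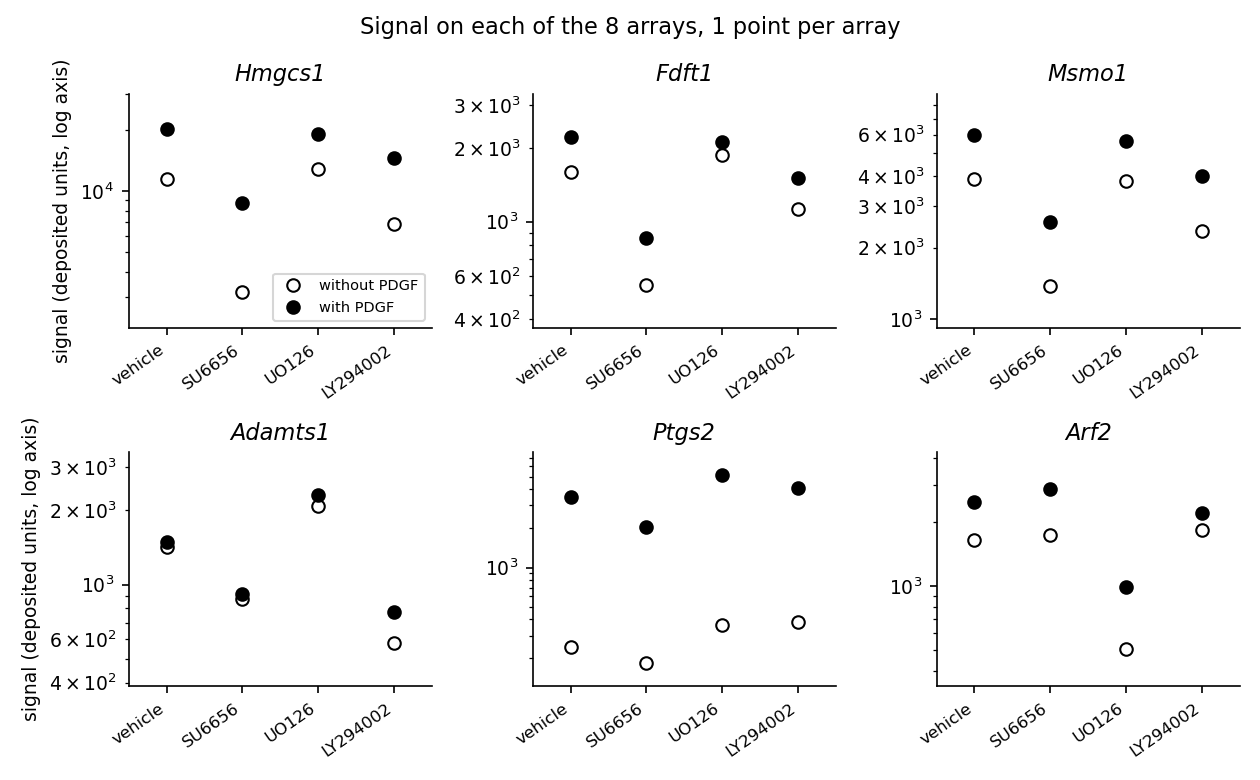
Deposited signal (log axis) of 6 genes on each of the 8 arrays, by inhibitor, without PDGF (open) and with PDGF (filled). Hmgcs1, Fdft1 and Msmo1 are lowest with SU6656 in both states, Adamts1 and Ptgs2 are higher with UO126 than with SU6656, and Arf2 is lowest with UO126 (507.1 and 988.4).

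Angptl4, an inhibitor of lipoprotein lipase, differed from the reference arrays mostly on the UO126 side. Its signal was 330.6 with SU6656 and 874.0 with UO126, and 217.5 and 465.5 under PDGF, against 375.9 with vehicle and 248.1 with PDGF alone. UO126 was 1.19 above vehicle and 0.83 above PDGF alone, while SU6656 was close to both (−0.17 and −0.16). The log2 difference between the inhibitors was 1.17 (SE 0.163, adjusted p = 0.0268), at a probe set that can match several transcripts.

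A further 4 genes passed but had smaller differences in one of the states, and are named here after their values were seen. Rgs2, a regulator of G protein signalling, had 2041.2 and 3732.1 without PDGF and 691.6 and 2063.4 with it (log2 1.18, SE 0.184, adjusted p = 0.0452). The PDGF array had 657.3, so the UO126 array under PDGF stood apart from both of the others. Another Rgs2 probe set gave 0.95 and did not pass (limma adjusted p = 0.0957). The linker histone H1f2 (0.66), the transcription factor Sox4 (0.73) and the helicase Eif4a2 of translation initiation (0.69) were also higher with UO126. Other Sox4 probe sets gave 0.67, 0.53, 0.31, 0.17 and 0.12 and did not pass. The last of these changed sign with PDGF (0.85 without it and −0.61 with it). For H1f2, another probe set gave 0.78 (limma adjusted p = 0.084), and a dim one gave −0.0083. Linker histones are close in sequence, and whether the H1f2 probe sets tell them apart was not tested.

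Only 4 genes were lower with UO126, and 2 of them stood apart by over 2-fold in each state. Arf2 had 1738.8 with SU6656 and 507.1 with UO126, and 2860.6 and 988.4 under PDGF. The vehicle array had 1647.9 and the PDGF array 2484.8, so here SU6656 lay near the reference and UO126 below it. The log2 difference was −1.61 (SE 0.148, adjusted p = 0.0036). All 4 Arf2 probe sets were lower with UO126, from −1.33 to −1.77, and 3 of them passed. ARF family members are close in sequence, and 1 of the 4 probe sets can match several transcripts.

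Slc30a3, a vesicular zinc transporter, was the other. It had 331.0 with SU6656 and 81.7 with UO126, and 358.3 and 141.3 under PDGF, against 303.7 and 385.1 on the reference arrays (log2 −1.41, SE 0.211, adjusted p = 0.0384). The UO126 signals were dim, where the added offset of 36.3 units makes a fold change smaller than it is. Mat2b, the regulatory subunit of methionine adenosyltransferase, had 1266.8 and 782.1 without PDGF and 1116.4 and 599.5 with it (log2 −0.76, SE 0.117, adjusted p = 0.0421). Ywhah, a phosphoserine-binding adaptor, had 3102.1 and 2001.5, then 3606.8 and 2188.9 (log2 −0.65, SE 0.0892, adjusted p = 0.0254). For these the SU6656 arrays lay above the reference array and the UO126 arrays below it.

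Across probe sets, 34 of 15838 (0.215%) passed, 27 higher (0.17%) and 7 lower (0.0442%) with UO126, and 1526 had an unadjusted p under 0.05. They come from 24 named genes, and 2 are unnamed here. The other genes among the 24, seen afterwards, were Prrx1 and Fzd2. Each passed at a probe set that was not its brightest (0.94 and −0.92), and their brightest gave 0.12 and 0.15. The count was 11 without the SU6656 array, 16 without PDGF with SU6656, 21 without vehicle, 21 without PDGF and 22 without UO126. It was 27, split as 12 higher and 15 lower, without PDGF with UO126. Without a variance trend 0 passed (1345 with an unadjusted p under 0.05), and without a PDGF term 0 passed (935).

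Single arrays weighed differently on the genes. Hmgcs1, Fdft1, Msmo1, Cyp51 and Arf2 passed without each of the 8 arrays in turn. Mvd and Adamts1 were lost without the array of PDGF with SU6656 alone, at 0.92 to 1.15 and 1.19 to 1.33 over the 8 fits. Sqle was lost when either of the SU6656 arrays was left out (0.83 to 1.12), and Aacs when either inhibitor array under PDGF was (1.00 to 1.30). Ptgs2 passed in 5 of the 8 fits and was lost without the SU6656 array and without either inhibitor array under PDGF (0.95 to 1.23). Cited2, Sox4 and H1f2 passed in the 4 fits that kept all 4 arrays of the contrast and in none of the others. Stard4 passed in 3, without vehicle, LY294002 or PDGF with LY294002 (0.95 to 1.06). Rgs2 also passed in 3, without vehicle, PDGF or UO126 (0.89 to 1.48). Idi1 and Eif4a2 passed in 2, without LY294002 or PDGF with LY294002 (0.81 to 1.14 and 0.59 to 0.79). Angptl4 and Slc30a3 passed in 1, without PDGF with UO126, and Ywhah in 1, without PDGF with LY294002. Mat2b (−0.84 to −0.68) and Sc5d (0.79 to 0.93) passed in none. Over only the 4 arrays of the contrast Slc30a3 (adjusted p = 0.0853), Sc5d (0.0698), Mat2b (0.086) and Ywhah (0.0597) did not pass, and without both LY294002 arrays these 4, Angptl4 and Rgs2 did not.

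**Figure D3:**
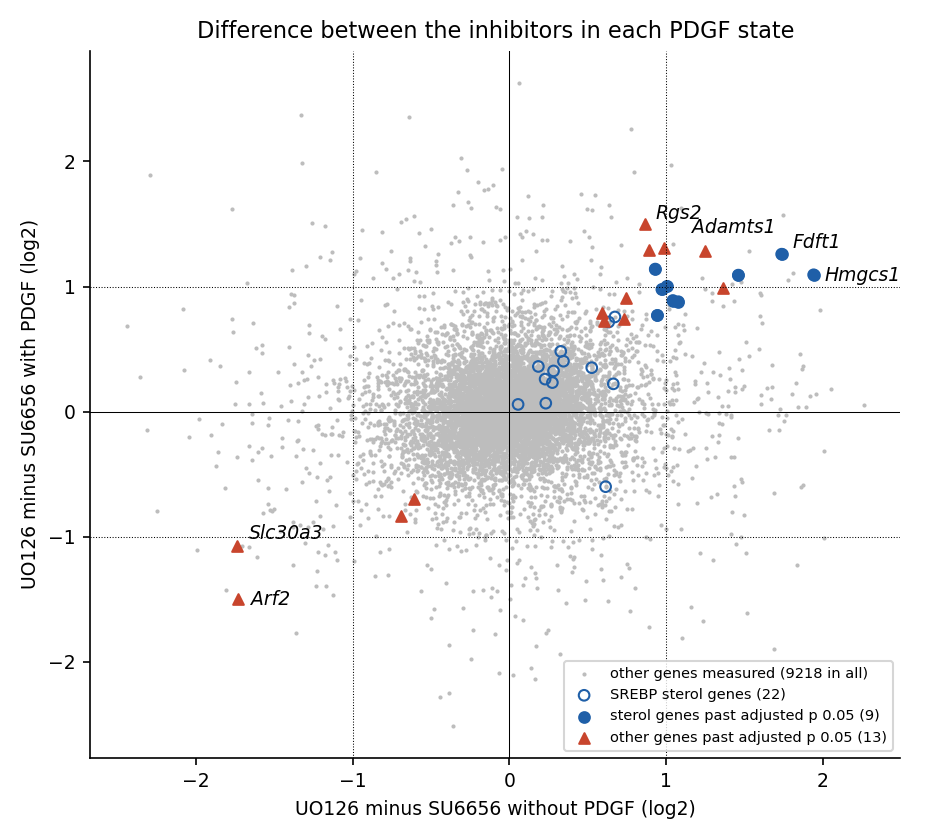
Log2 difference between UO126 and SU6656 without PDGF (x axis) and with PDGF (y axis) for 9218 genes, each axis 1 array against 1, with dotted lines at 2-fold. The 9 sterol genes past the threshold (filled circles) and 13 other genes (triangles) lie in the 2 corners where both states have the same sign, and most other genes scatter around 0. The tested value is the mean of the 2 plotted differences, so passing the threshold itself favours genes in these corners.

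Over all genes the differences in the 2 PDGF states were only weakly related. Pearson's r between the 2 differences was 0.0693 and Spearman's rho 0.0958 across 9218 genes, which are not independent replicates; the points share normalisation but no array. UO126 was higher in both states in 26.2% of genes and lower in both in 27.3%. A total of 34 genes were at least 2-fold apart in both states, 15 higher (0.163%) and 19 lower (0.206%) with UO126. Of these, 7 passed the test: Hmgcs1, Fdft1, Msmo1, Adamts1 and Stard4 on the higher side, Arf2 and Slc30a3 on the lower. Their median mean signal was 1481, against 104.4 for the 27 that did not pass and 414.2 for all genes. With the values as deposited the 2-fold genes were 8 higher and 21 lower.

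The 27 that did not pass were dim, with mean signals of at most 274.5. On the higher side, Stc1 had 45.5 with SU6656 and 237.8 with UO126, and 36.8 and 169.3 under PDGF. Its log2 difference of 1.6598 (SE 0.295, limma adjusted p = 0.084) was the largest positive one of all 9218 genes. Ptgds had 268.5 and 570.1, then 48.0 and 288.3 (log2 1.5017, SE 0.283, adjusted p = 0.0957). Both were named after their values were seen, and neither passed. Dlk2, a transmembrane relative of the Notch regulator Dlk1, had 355.7 and 84.1 without PDGF and 432.3 and 127.5 with it, the largest difference on the lower side (log2 −1.62, SE 0.385, adjusted p = 0.214). Dlk2 passed over only the 4 arrays of the contrast (adjusted p = 0.0262) and without the PDGF array (0.0414). Oas2, an interferon-induced antiviral synthetase, had 185.7 and 53.2, then 134.2 and 34.0 (−1.30, SE 0.288). Zbtb3, a zinc finger protein, had 272.9 and 109.1, then 289.0 and 101.7 (−1.16, SE 0.266). Mc3r, a melanocortin receptor, had −1.39, Cd209d, a lectin, −1.57, Bmp8a, a BMP ligand, −1.32, Pkp3, a desmosomal plakophilin, −1.28, and Tex43 −1.25, with adjusted p of 0.238 to 0.519. These 8 genes on the lower side were chosen for a difference of the same sign on both pairs of arrays, so the shared sign is no further result. In 6 of the 8 the UO126 signals were only 12.4 to 53.2.

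ERK-dependent feedback and target genes, the known readout of MEK activity, had differences of both signs. Of 23 measured of a list of 30, 0 passed (limma, 2 with an unadjusted p under 0.05), with a median of −0.04. Over all genes 0.239% passed in either direction and 9.62% had such a p, so these counts do not set the list apart. The contrast averages both PDGF states, and any change of a difference with PDGF enters its residual. A difference present only under PDGF can therefore be missed. With PDGF, both inhibitor arrays were below PDGF alone in 14 of 23, against 31.5% of all genes, a comparison that shares the PDGF array. Dusp6, a phosphatase of ERK, had 1397.1 with PDGF, 685.5 with PDGF and SU6656, and 593.4 with PDGF and UO126. Without PDGF it was dim on all arrays, 75.6 with SU6656 and 17.3 with UO126, and the log2 difference was −0.64 (SE 0.253, adjusted p = 0.471). Spry2, a Sprouty inhibitor of receptor signalling, had 1547.9 and 1419.0 under PDGF, against 2074.1 with PDGF alone. Errfi1, an inhibitor of the EGF receptor, had 4527.7 and 3109.6 under PDGF, against 7900.8 (−0.45 over both states, SE 0.208).

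Other members had higher values with UO126 in at least 1 state. Ier3, an early response gene, had 986.7 with PDGF and SU6656 and 3199.4 with PDGF and UO126, above the 1442.7 of PDGF alone (1.07 over both states, SE 0.284, adjusted p = 0.268). Egr1, a zinc finger transcription factor, had 355.0 and 266.5 without PDGF and 3776.7 and 6927.9 with it, a difference of −0.38 and then 0.86. Fosl1, a FOS family member, had the opposite signs, with 29.6 and 156.1 without PDGF and 1426.2 and 780.9 with it. Phlda1 had 0.23, Etv5 −0.08 and Ccnd1, cyclin D, 0.07, and the signs of Egr1, Fosl1, Phlda1, Etv5, Spry2 and Ccnd1 changed when 1 array was left out.

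**Figure D4:**
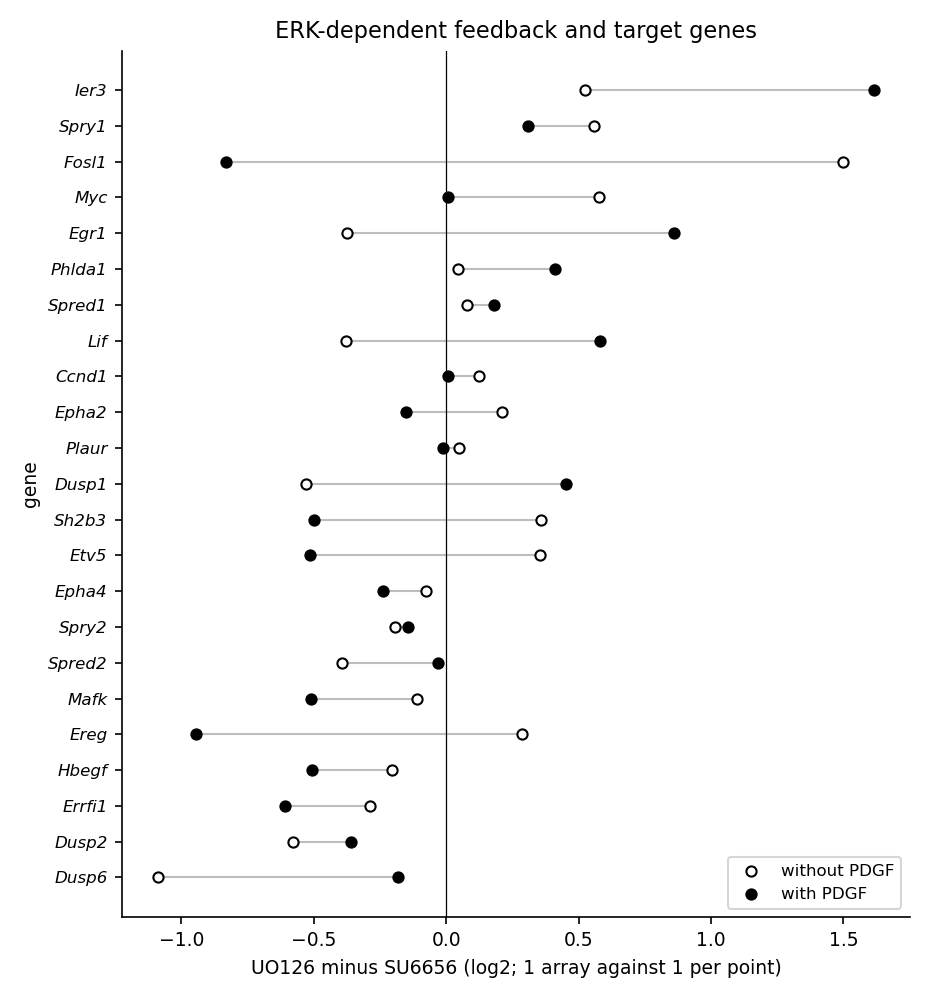
Difference in log2 signal between UO126 and SU6656 (x axis) for the 23 measured ERK-dependent genes (y axis), without PDGF (open) and with PDGF (filled), each point 1 array against 1. Points lie on both sides of 0, from Dusp6 (−1.09 without PDGF) to Ier3 (1.62 with PDGF), and none passed the threshold.

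The transcripts of the inhibitors' targets and their relatives gave no calls, and at 0.239% over all genes lists of this size give few. Of 16 measured Src family kinases, regulators and substrates, 0 passed (limma, 0 with an unadjusted p under 0.05, against 9.62% of all genes), with a median of −0.15. Src had −0.45 (SE 0.279), Fyn −0.18 (SE 0.0933) and Yes1 −0.14 (SE 0.28). Of 11 MEK and ERK pathway kinases, 0 passed (0 with an unadjusted p under 0.05), and Map2k1, which encodes MEK, had 0.11 (SE 0.124). UO126 has also been described as a ligand of the aryl hydrocarbon receptor. Of 6 measured genes of that receptor's battery, 0 passed (2 with an unadjusted p under 0.05). Cyp1b1, a cytochrome and the battery member with the largest value, had 814.7 and 1084.6 without PDGF and 552.2 and 1012.0 with it (0.60, SE 0.132, adjusted p = 0.164), with no overlap between the inhibitors, while Nqo1 had 0.34, Tiparp 0.10 and Ahr 0.07. Cyp1a1 was not among the genes kept after the filter on low signal.

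Immediate early transcription factors, 35 of them measured, also gave 0 calls (6 with an unadjusted p under 0.05), from −1.23 for Klf2 to 0.95 for Atf3, with a median of 0.09. In 17 further lists no member passed, with 0 to 8 members of a list at an unadjusted p under 0.05 (limma). The highest counts were 8 of 21 ATF4 and amino acid supply genes and 8 of 26 matrix and protease genes, against 9.62% of all genes. The medians of the 17 lists ran from −0.23 (PDGF receptors and ligands, 5 measured) to 0.17 (NRF2 oxidative stress genes, 15 measured). They were −0.09 for 25 SRF and MRTF cytoskeletal targets and 0.0077 for 26 matrix and protease genes. Among 12 fibroblast markers 0 passed, with differences of −0.23 to 0.30. An unadjusted p under 0.05 (limma) was found for 5 of the 12, a larger share than the 9.62% of all genes. Col1a1, a defining collagen, had 41879.5 and 33920.3 without PDGF and 38323.1 and 33288.1 with it, so that this collagen was detected on all 4 arrays. No macrophage, epithelial, endothelial, adipocyte or muscle marker passed among the 14 measured (0 with an unadjusted p under 0.05). The array medians of the experiment were 174.7 to 198.4, with 198.4 and 197.75 for UO126 and SU6656, and 174.7 and 181.8 under PDGF. The Gapdh 3′ to 5′ ratio, a sign of RNA quality, was 0.739 to 0.787 on the 8 arrays.

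Whether PDGF changed the difference between the inhibitors was tested with a term of its own. No probe set passed (limma, 1181 with an unadjusted p under 0.05; 7.17% of genes had one). Hmgcs1 had one of the smallest p of all genes, with its difference smaller under PDGF by 0.85 (−0.85, SE 0.13, adjusted p = 0.267), and it was higher with UO126 in both states. Fosl1 had a PDGF dependence of −2.33 (SE 0.341, adjusted p = 0.267), from 1.4965 to −0.83. Inhba, a subunit of activin, went from 356.8 and 63.7 to 298.9 and 558.2, for SU6656 and UO126, a PDGF dependence of 2.91 (SE 0.449, adjusted p = 0.267). Rgs3, a regulator of G protein signalling, had 1.58 (SE 0.241), and Prss2, a trypsin, 4.18 (SE 0.647), from a difference of −2.29 to one of 1.89. The remaining named ones were Snrnp27 (1.09), Laptm4a (−0.76), Arfgap2 (−1.14), Inpp5d (3.00) and Uqcr10 (1.04), with adjusted p of 0.35 to 0.479.

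At 1 probe set of Pkmyt1, a kinase of the mitotic entry checkpoint named after its values were seen, the change was 4.35 (SE 0.424, adjusted p = 0.0711). It had 519.5 with SU6656 and 61.8 with UO126, and 59.3 and 274.3 under PDGF. Its brightest probe set gave 0.51. The former passed with median scaling (4.25, adjusted p = 0.037) and without LY294002 or PDGF with LY294002, where a probe set of Nes, a filament gene, passed too (−4.00).

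PDGF-treated cells were also measured on another array design, none of whose arrays enters the contrast above. Its 9 arrays hold a MEK experiment (untreated, UO126 10 µM, PD98059 7.5 µM, PDGF 25 ng/ml, and PDGF with each of these MEK inhibitors, with no PDGF time in the labels) and a second run of the Src comparison (a vehicle array, 1 of PDGF for 1 hour, and 1 of PDGF with SU6656 2 µM). UO126 and SU6656 lie in different experiments there, so the difference under PDGF was estimated in 1 model over all 9 arrays with a term for the experiment, and it draws on the untreated, vehicle and PD98059 arrays too. No probe set passed of 8695 (limma, 412 with an unadjusted p under 0.05; 4.6% of genes had one). Of the 18 genes higher with UO126 in the 8-array table, 15 were measured, and the model's estimate was higher with UO126 in all 15 (50.8% of all genes). A direct difference, chosen after seeing the data, takes each inhibitor minus the PDGF array of its own experiment. It was higher with UO126 in 14 of the 15 (51.2% of all genes), and Eif4a2 had −0.07. Of the 15, 10 had an unadjusted p under 0.05, against 2.62% of genes higher with such a p.

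Hmgcs1 had 5268.9 with PDGF and 4859.8 with PDGF and UO126 in the MEK experiment, and 4655.5 and 2118.6 with PDGF and with PDGF and SU6656 in the repeat. Its log2 difference in the model was 1.05 (SE 0.211, adjusted p = 0.561), and the direct one 0.98. Cyp51 had 2851.0 and 4168.4, then 4429.6 and 2936.8, a difference of 1.08 (SE 0.246, adjusted p = 0.677). Fdft1, with 1.498 in the 8-array table, had 0.34 here (SE 0.246; direct 0.11), and its SU6656 array lay close to the PDGF array of the repeat, 2310.1 against 2467.9. Msmo1 had 0.81 (SE 0.225), Sqle 0.67 (SE 0.209) and Sc5d 1.06 (SE 0.456), with 0.46 for Idi1 and 0.42 for Mvd. H1f2 had 1.12 (SE 0.233), Ptgs2 0.88 (SE 0.29) and Angptl4 0.07 (SE 0.432), whose direct difference was 0.43. Of 18 measured sterol genes 15 had a positive difference, with a median of 0.44. Of the 18, 0 passed the threshold (7 with an unadjusted p under 0.05, limma), and Srebf1 (−0.37), Scd1 (−0.12) and Mvk (−0.13) were negative. Among the 5537 genes measured on both designs, a share of 51.7% was positive and 240 had such a p. Larger positive shares were found for NF-κB targets (12 of 12, median 0.65), FOXO targets (13 of 15) and interferon response genes (7 of 8). Every other list had a smaller share. The positive share on this design therefore does not set the sterol list apart.

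The 4 genes lower with UO126 had differences near 0 there. Arf2 had 0.17 (SE 0.679), with signals of 40.1 to 134.7 on the 4 PDGF arrays of this contrast, so its probe set was dim on this design. Slc30a3 had −0.16 (SE 0.292; direct 0.06), Ywhah −0.12 (SE 0.247) and Mat2b 0.06 (SE 0.23), each within its error of 0. Of 18 ERK targets measured there, 7 had a positive difference (median −0.07). An unadjusted p under 0.05 (limma) was found for 6 of the 18, against 240 of 5537 genes. Dusp6 had −1.37 (SE 0.328), Fosl1 −1.04 (SE 0.43) and Errfi1 −0.81 (SE 0.302), while Ier3 had 0.80 (SE 0.302). The adjusted p of these genes were 0.687 to 0.978. Phlda1 (−0.08) and Egr1 (0.0024) lay near 0. Over 5537 genes in both tables, 56.1% had the same sign in the 2 contrasts.

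**Figure D5:**
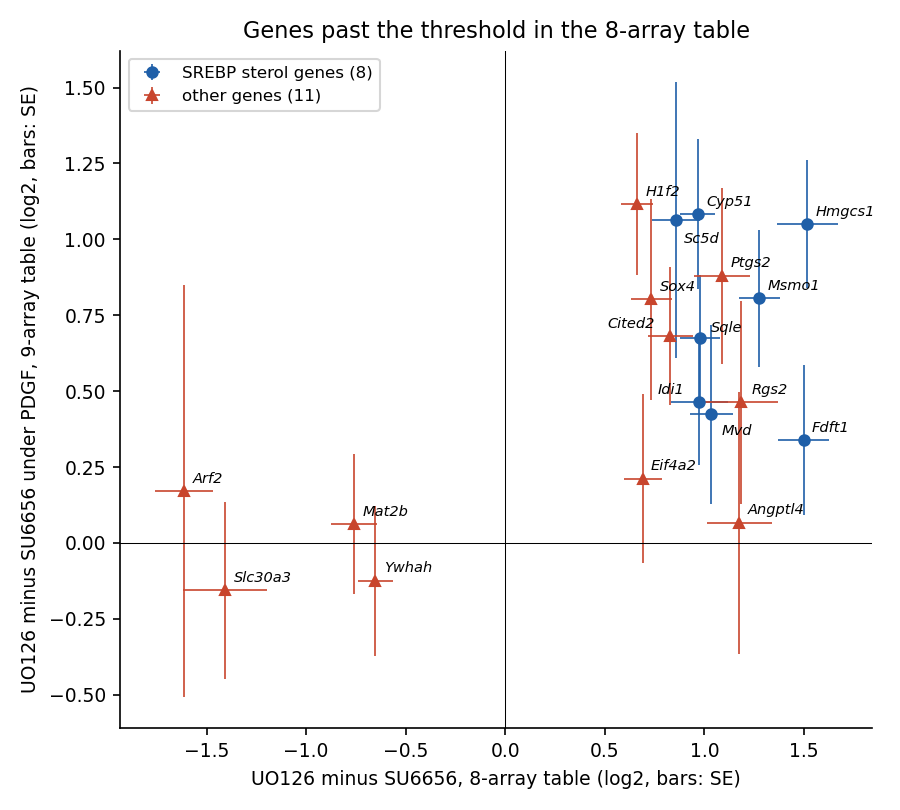
Log2 difference between UO126 and SU6656 in the 8-array table (x axis) and under PDGF in the 9-array table (y axis) for the 19 genes past the threshold in the former and measured in both, with bars of 1 SE. The 15 genes on the right lie above 0 on the y axis, and the 4 on the left lie near 0.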

How the data were processed

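RNA of NIH 3T3 cells was measured on arrays, 1 per condition. Per the file headers, the deposited columns hold 1 intensity per probe set and array, on a linear scale; trimmed means (2% at each end) were 500.2 on all 8 arrays, so they had been scaled before deposit. The sources used here do not give the software or a genome build. Control probe sets were left out, values were quantile normalised per table and log2(value + 20th percentile; 36.3 or 21.2 units) was taken, and the lowest 30% by mean were left out (15838 and 8695 kept).

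limma 3.58.1 in R 4.3.3 fitted PDGF and inhibitor over 8 arrays (residual df 3), plus the PDGF dependence (df 2), and a 9-array fit with experiment, PDGF, MEK inhibitors, their PDGF term and SU6656 (df 2). Tests were two-sided. The residual holds any interaction of PDGF with an inhibitor. No label says that arrays came from separate cultures, so p-values reflect no more than how these arrays vary among themselves, which may be technical, and the number of arrays limits the precision. Scripts were tested on simulated data.

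Genes were named by the platform annotation, with symbols updated through a RefSeq table (GRCm38.p6), at the brightest probe set. Named were, per direction, the 12 genes with the largest smaller difference of the 2 states (filled with genes not past the threshold), list members that passed, fixed ERK, aryl hydrocarbon receptor and kinase genes, and the 10 smallest p for PDGF dependence. Members and lists were chosen with earlier results of these data known. Alternatives covered scaling, offset, filter, trend, terms, arrays left out and fold limit.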

Additional observations from a re-analysis of the deposited data

How the results depend on the processing

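The count of 34 probe sets was 33 to 35 with other scalings or offsets and with the lowest 50% left out, 31 without probe sets of several transcripts, 39 over only the 4 arrays with PDGF state as the block, and 27 without both LY294002 arrays. It was 16 without the filter, 0 without a variance trend, 0 without a PDGF term, and 11 to 30 without any 1 array; leaving out an array of the contrast leaves 1 array of that inhibitor, assumed to vary like the others. For the 22 genes past the threshold the adjusted p was 0.291 to 0.441 without the trend and 0.345 to 0.951 without the PDGF term, and no estimate changed sign. The 34 genes at least 2-fold apart numbered 61 and 6 with the offset at the 10th and 40th percentile, 64 without the filter, 10 with the lowest 50% left out, 169 at 1.5-fold, 0 at 3-fold and 53 at any probe set. PDGF dependence gave 1 call with median scaling, 1 without probe sets of several transcripts and 0 to 2 without any 1 array. The 9-array contrast gave 0 to 1 without any 1 array, the 1 being Ccl2 (2.85) without the vehicle array of the repeat, and could not be fitted without its PDGF with SU6656.

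Among named genes, only ones not past the threshold changed sign. Laptm4a had 0.0263 as deposited and 0.0533 with median scaling, against −0.02. Without any 1 array the ranges were −0.55 to 1.04 for Egr1, −0.52 to 1.19 for Fosl1, −1.84 to 1.44 for Prss2, −0.38 to 2.09 for Inpp5d, −0.29 to 0.0071 for Yes1, −0.0598 to 0.52 for Phlda1, −0.42 to 0.26 for Etv5, −1.79 to 0.53 for Inhba, −0.31 to 0.28 for Laptm4a, −0.59 to 0.21 for Uqcr10, −0.24 to 0.90 for Rgs3, −0.46 to 0.12 for Spry2, −0.0011 to 0.13 for Ccnd1, −0.27 to 0.41 for Ahr, −0.29 to 0.48 for Tiparp and −0.64 to 0.18 for Snrnp27. The causes were not tested. No paired analysis was possible because the labels carry no replicate numbers and each condition has 1 array; the PDGF state served as the block instead.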
